A study of Arabidopsis thaliana with 8 samples.

Results

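The nuclear genes for light harvesting, the photosystem subunits and the small subunit of Rubisco were followed in Arabidopsis thaliana seedlings. A list of 41 loci was matched to probes through the transcript names in the array files: 4 LHCA, 15 LHCB, 9 PSA, 9 PSB and 4 RBCS genes. All 41 were measured, by 145 probes that were well above background, out of 22101 genes tested on the array. The members were defined by what they encode, though the list was chosen with earlier results of these data known.

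Chlorophyll a/b-binding proteins gather light in the thylakoid membrane: LHCA proteins surround photosystem I, and LHCB proteins surround photosystem II. The PSA and PSB subunits form the photosystems themselves, and RBCS proteins pair with a plastid-encoded large subunit in Rubisco, the enzyme that fixes carbon dioxide. The genes are classical light-induced, leaf-enriched transcripts. Brassinosteroids are steroid hormones of plant growth whose signal passes through the transcription factors BZR1 (BIL1) and BES1, and mutants that lack the hormone can express light-regulated genes in the dark.

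The tested seedlings carried bil1-1D/bzr1-1D, a dominant allele that gives a stabilized BZR1 protein, in the Col-0 background, and received 1 µM brassinolide, an active brassinosteroid, for 3 hours. The comparison seedlings were Col-0 wild type and received the solvent DMSO for 3 hours. Both groups, 4 samples each, had first grown for 14 days on brassinazole, which blocks brassinosteroid synthesis, at 1 µM, under 16 hours of light and 8 hours of dark. Genotype and hormone changed together, so a fold change here is that of mutant plus brassinolide over wild type plus DMSO, and the parts of the allele and of the hormone cannot be told apart. The labels do not say whether the replicates came from separate cultures, so p-values may measure technical spread only.

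Each sample was hybridised to a 1-colour array. Signals were scaled to the 75th percentile of each array and put on a log2 scale, so 0 is that percentile, and a gene was represented by its brightest probe unless another is named. All mutant arrays lay on 1 slide and all wild-type arrays on another: the slide cannot be told apart from the group. The 75th percentile of the signal was 3033 to 3821 in the mutant and 4638 to 6153 in the wild type. No spot was saturated, and the number of arrays limits the precision. A gene was called when limma's adjusted p, by Benjamini-Hochberg over all genes tested, was under 0.05.

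On their brightest probes, the photosynthesis genes moved little and in both directions. Of the 41 genes, 7 rose and 9 fell in the mutant with brassinolide, and 25 did not pass the test. In all, 39.0% of the members were called, against 55.9% of all genes tested; of all genes, 30.2% rose and 25.7% fell. The median log2 fold change of the members was -0.09 and that of all genes tested was 0.03. No member changed by 2-fold or more, which 8.10% of all genes did with a call, and the largest fold of a called member was 1.38. The groups of 4 arrays did not overlap for 4 members that were higher and 6 that were lower in the mutant, against 52.2% of all genes in either direction (28.2% higher and 24.0% lower). Every called rise except that of LHCB7 was on a probe with a mean signal of 300000 or more. Of other genes' probes this bright, 7 of 16 were called higher and 0 lower. With each gene's brightest probe under a signal of 100000, 1 of 31 members rose and 12 fell. In whole seedlings, fewer green cells and less RNA per cell cannot be told apart.

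**Figure D1:**
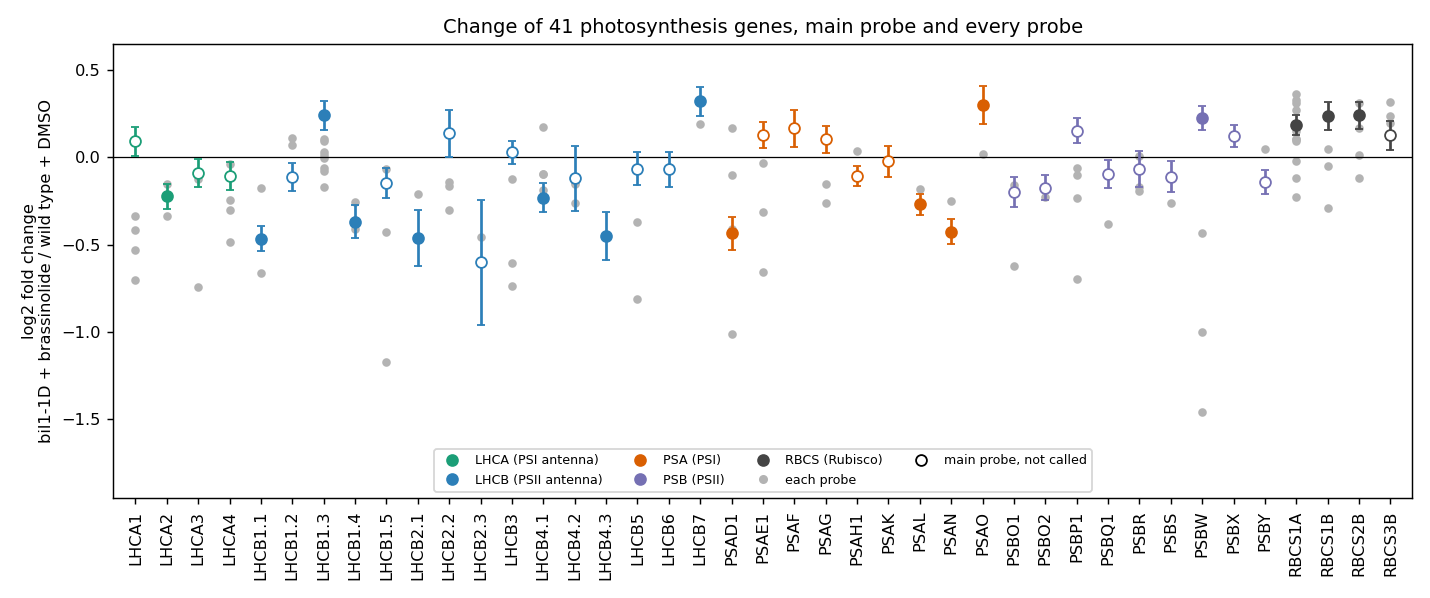
The vertical axis gives the log2 fold change, mutant with brassinolide over wild type with DMSO, for each of the 41 genes along the horizontal axis. Coloured points are the brightest probe of each gene with its SE, filled where called, and grey points are the other probes; the coloured points lie between -0.60 and 0.32, while single grey points reach -1.46.

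The antenna of photosystem I held 1 call on the brightest probes, 25% of its genes against 55.9% of all genes. Of its 4 genes, LHCA2 fell and LHCA1, LHCA3 and LHCA4 did not pass the test. LHCA2 (AT3G61470), which pairs with LHCA3 in the antenna belt, read 5.22, 5.24, 5.24 and 5.35 on mutant replicates 1 to 4, against 5.32, 5.47, 5.64 and 5.49 on wild-type replicates 1 to 4. Mutant replicate 4 lay above wild-type replicate 1, so the groups overlapped. The log2 fold change was -0.22 ± 0.07 (SE) with a limma adjusted p of 0.0290. The call was lost in 10 of 20 other settings, among them 6 that left out 1 array each (log2 fold change -0.28 to -0.17). LHCA1 had a log2 fold change of 0.09 on its brightest probe, while its other 4 probes were all called lower, down to -0.70. LHCA3 had 1 of 3 probes called lower, at -0.74, and LHCA4 had 3 of 6, down to -0.49. Over the 4 genes 10 of 17 probes were called lower and 0 higher, against 29.5% lower and 26.0% higher among all probes tested.

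The antenna of photosystem II was the largest group. Among its 15 genes 2 rose, 5 fell and 8 did not pass, so 46.7% were called, against the 55.9% of all genes. The lowest adjusted p of any member was that of LHCB1.1 (AT1G29920), a gene for the most abundant protein of the light-harvesting complex II trimers. It read 5.60, 5.59, 5.66 and 5.53 on the mutant arrays, against 5.90, 6.10, 6.21 and 6.04 on the wild-type arrays. Every mutant array was below every wild-type array. The log2 fold change was -0.46 ± 0.07 (SE; limma adjusted p = 0.000886), and the call held in 19 of 20 other settings; it was lost with a dimmer probe of the gene, at -0.17.

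LHCB2.1 (AT2G05100), which encodes another trimer protein, read -1.90, -1.94, -1.47 and -1.79 on the mutant arrays, against -1.64, -1.46, -0.98 and -1.17 on the wild-type arrays. It fell by 0.46 on the log2 scale (SE 0.16, limma adjusted p = 0.0398). The groups overlapped at mutant replicate 3, and leaving out any of 6 single arrays lost the call. LHCB1.4 (AT2G34430), a further gene of the LHCB1 group, also fell, by 0.37 on the log2 scale with no overlap between groups.

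The minor antenna proteins bind as monomers between the trimers and the core. Of the 3 genes for one of them, CP29, LHCB4.1 fell by 0.23 on the log2 scale and LHCB4.3 by 0.45, and LHCB4.2 did not pass the test. The LHCB4.1 call was lost in 12 of 20 other settings, where its log2 fold change reached 0.03 with normexp background correction, and the LHCB4.3 call in 8 of 20. LHCB4.3 (AT2G40100), a form known from high-light conditions, read 0.94, 1.26, 1.23 and 0.93 on the mutant arrays, against 1.89, 1.44, 1.30 and 1.53 on the wild-type arrays. The groups came close, at mutant replicate 2 and wild-type replicate 3, and did not overlap (limma adjusted p = 0.0239). LHCB4.2 (AT3G08940) read 4.16, 4.16, 4.44 and 4.28 on the mutant arrays, against 3.94, 4.14, 4.75 and 4.70 on the wild-type arrays, where replicates 3 and 4 stood above replicates 1 and 2. LHCB5 (CP26) and LHCB6 (CP24) had log2 fold changes of -0.06 and -0.07 on their brightest probes and did not pass. The other 2 probes of LHCB5 were called lower, at -0.37 and -0.81, and no probe of LHCB6 was called.

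The rises in this antenna were in LHCB7 and LHCB1.3. LHCB7 (AT1G76570), a rare member of the family, read -1.34, -1.39, -1.39 and -1.26 on the mutant arrays, against -1.87, -1.61, -1.48 and -1.71 on the wild-type arrays. Every mutant array was above every wild-type array, with a log2 fold change of 0.32 ± 0.08 (SE; limma adjusted p = 0.0113), and the call was lost in 3 of 20 other settings. LHCB1.3 (AT1G29930) lies next to LHCB1.1 on chromosome 1 and encodes the same kind of protein. It read 6.58, 6.69, 6.78 and 6.72 on the mutant arrays, against 6.25, 6.46, 6.63 and 6.48 on the wild-type arrays, and the groups overlapped. Its log2 fold change was 0.24 ± 0.08 (SE; limma adjusted p = 0.0402), and the call was lost in 12 of 20 other settings. This probe was the highest of the gene's 9. The other 8 were not called, and the median over the 9 was 0.01.

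LHCB2.3 (AT3G27690), a gene for another LHCB2 protein, was singled out after its values were seen, for its spread within the wild type. It read 0.24, 0.32, 0.52 and 0.25 on the mutant arrays, against 0.30, 0.22, 1.32 and 1.88 on the wild-type arrays. Wild-type replicates 3 and 4 stood apart from the other 6 arrays, and the second probe of the gene gave -1.29, -1.48, -0.30 and 0.26 on the wild-type arrays in the same order. The SD was 0.13 among mutant arrays and 0.81 among wild-type arrays, so its log2 fold change of -0.60 ± 0.36 (SE) did not pass. In a fit without the 3 arrays that the scanner's software had marked for evaluation (mutant replicate 4, wild-type replicates 1 and 2) it was -1.25 and passed. That fit dropped the wild-type arrays on which the gene read low, so a larger fall was set by that choice and adds no support.

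Photosystem I itself held 3 falls and 1 rise among 9 genes, so 44.4% were called, against 55.9% of all genes. PSAD1 (AT4G02770) encodes a stromal subunit at the docking site of ferredoxin. It read 5.06, 5.12, 5.20 and 5.12 on the mutant arrays, against 5.29, 5.60, 5.76 and 5.59 on the wild-type arrays. The groups did not overlap, and PSAD1 fell by 0.43 on the log2 scale (SE 0.10, limma adjusted p = 0.00541). That call held in 19 of 20 other settings, yet the gene's brightest probe under a signal of 100000 gave 0.17, which did not pass.

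PSAN (AT5G64040), a lumenal subunit on the plastocyanin side, fell by 0.42 on the log2 scale, with both of its probes called lower and no overlap between groups. PSAL (AT4G12800), which takes part in docking the mobile antenna, fell by 0.27, also with both probes called lower. PSAO (AT1G08380), which works in the same docking region, read 6.39, 6.42, 6.59 and 6.41 on the mutant arrays, against 5.84, 6.20, 6.36 and 6.20 on the wild-type arrays. All mutant arrays were above all wild-type arrays, by a log2 fold change of 0.30 ± 0.11 (SE; limma adjusted p = 0.0457). The PSAO call was lost in 12 of 19 other settings, and mutant replicate 3 lay apart from its group. PSAE1, PSAF, PSAG, PSAH1 and PSAK lay between -0.11 and 0.17 on their brightest probes and did not pass. Of the 4 PSAE1 probes 2 were called lower, at -0.66 and -0.31. PSAE1 was called higher in 3 of 20 other settings and lower in 2, among them the mean of its probes at -0.22. PSAG was called higher in 1 of 20 other settings, and 1 of its 4 probes was called lower, at -0.26.

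Of the 9 photosystem II genes, only PSBW was called in this fit (11.1%, against 55.9% of all genes), and its probes disagreed. PSBW (AT2G30570), a small membrane subunit that helps hold the core and its antenna together, read 6.46, 6.49, 6.58 and 6.52 on the mutant arrays, against 6.13, 6.30, 6.44 and 6.28 on the wild-type arrays. The groups did not overlap, at a log2 fold change of 0.23 ± 0.07 (SE; limma adjusted p = 0.0259). The other 3 probes of PSBW were all called lower, at -0.43, -1.0 and -1.46, so no direction can be given for the gene.

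The subunits of the oxygen-evolving complex, which splits water on the lumenal side, did not pass in this fit. PSBO1 (AT5G66570) read 6.22, 6.33, 6.41 and 6.33 on the mutant arrays, against 6.29, 6.51, 6.68 and 6.59 on the wild-type arrays. Its paralog PSBO2 (AT3G50820) read 4.53, 4.61, 4.54 and 4.59 on the mutant arrays, against 4.55, 4.77, 4.89 and 4.74 on the wild-type arrays. Only wild-type replicate 1 fell within the mutant range of either gene, and the log2 fold changes were -0.20 and -0.17 (limma adjusted p = 0.0879 and 0.0719). PSBO1 was called lower in 7 of 20 other settings, with a log2 fold change of -0.73 in the values of the authors' deposited table. PSBP1 and PSBQ1 of the same complex stood at 0.15 and -0.10 here. PSBP1 was called higher in 5 of 20 other settings and PSBQ1 lower in 3. This PSBP1 probe was the highest of the gene's 5, whose median was -0.10, and 1 of the 5 was called lower, at -0.70. The second PSBQ1 probe was called lower, at -0.38. PSBS, the sensor of energy-dependent quenching, stood at -0.11. PSBR, PSBX and PSBY lay between -0.14 and 0.12.

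For the small subunit of Rubisco, RBCS1A, RBCS1B and RBCS2B were called higher on their brightest probes, and RBCS3B did not pass. That was 75% of the 4 genes called, against 55.9% of all genes. RBCS2B (AT5G38420) read 6.34, 6.47, 6.58 and 6.45 on the mutant arrays, against 6.08, 6.24, 6.37 and 6.18 on the wild-type arrays, and the groups overlapped at mutant replicate 1. Its log2 fold change was 0.24 ± 0.08 (SE; limma adjusted p = 0.0279). RBCS3B (AT5G38410) read 6.20, 6.30, 6.46 and 6.41 on the mutant arrays, against 6.08, 6.21, 6.38 and 6.19 on the wild-type arrays. Its difference, 0.13, was within the spread between arrays. This probe was the lowest of the 4 of RBCS3B, which were all above 0, up to 0.32. Of these, 2 were called higher and 0 lower. With the mean of its probes RBCS3B was called higher, at 0.22. RBCS1A (AT1G67090), the most strongly expressed small-subunit gene in leaves, rose by 0.18 on the log2 scale with no overlap. RBCS1A and RBCS1B each had another probe that was called lower, at -0.23 and -0.29.

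The Rubisco rises depended on how the arrays were scaled. Quantile normalization gave 0 called RBCS genes and a median of 0.02, and scaling to spike-in RNA gave 0 and 0.09, against 3 and 0.21 here. Each of the 3 calls was lost in 9 to 11 of 19 other settings, including those without wild-type replicate 4, without mutant replicate 3 and without mutant replicate 4. The brightest probes of the 3 called genes had mean signals of 348631 to 398404. Of other genes' probes at 300000 or more, 7 of 16 were called higher and 0 lower. RBCS1B, RBCS2B and RBCS3B are neighbours on chromosome 5 and near-identical in sequence, so their probes may share signal.

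**Figure D2:**
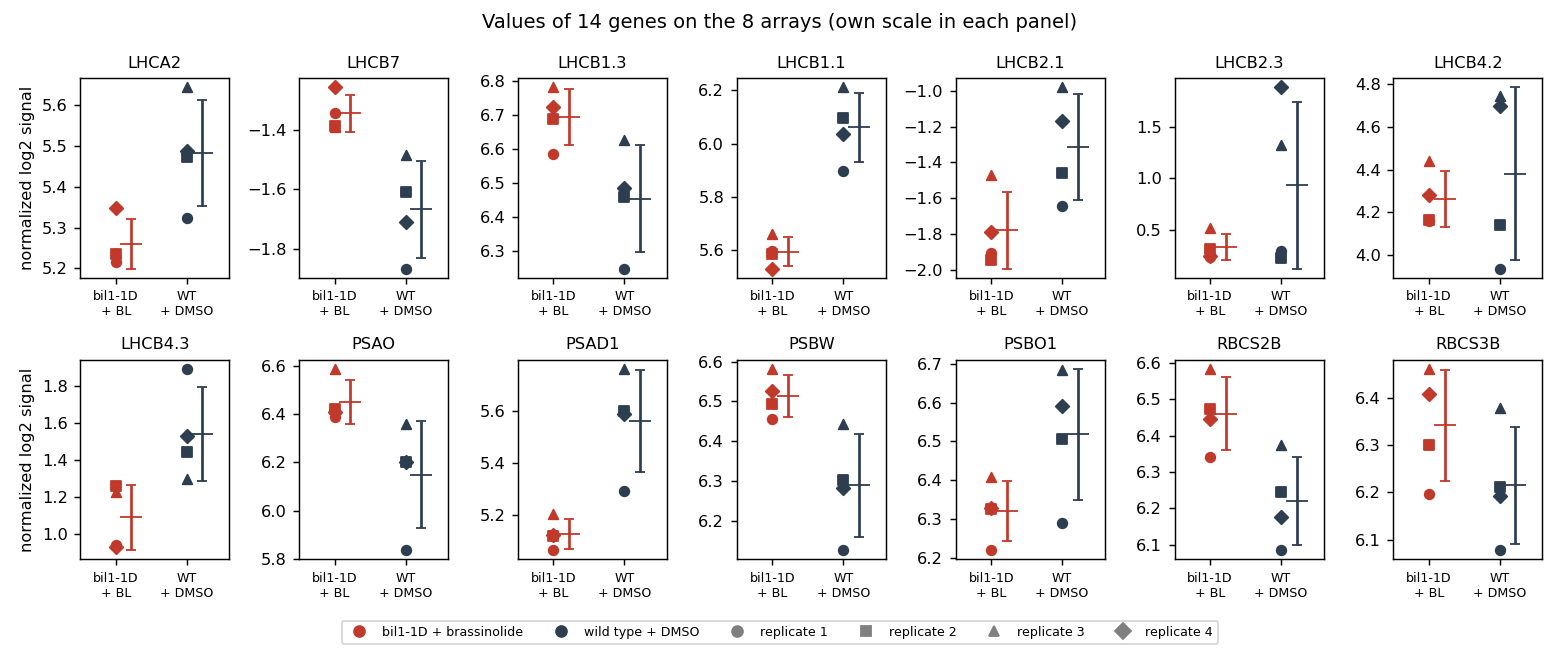
Each panel shows 1 gene, with normalized log2 signal on the vertical axis and the 4 mutant arrays left of the 4 wild-type arrays; bars are the mean and SD, and marker shapes give the replicate. LHCB1.1 and PSAD1 do not overlap between groups, RBCS3B does, and LHCB2.3 shows wild-type replicates 3 and 4 above the other 6 arrays.

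The complexes were then compared by the mean of their members on each array. The RBCS genes averaged 6.49 ± 0.09 in the mutant and 6.29 ± 0.11 in the wild type (SD, n = 4 each), a difference of 0.20. Their brightest probes had mean signals of 335946 to 398404, and those of most other members were dimmer, so the complexes were compared at unlike brightness. Other genes' probes at 300000 or more had a median log2 fold change of 0.16, with 7 of 16 called higher and 0 lower. The part of probe brightness in the RBCS difference was not tested. The LHCB genes averaged 4.02 ± 0.08 in the mutant and 4.17 ± 0.19 in the wild type, a difference of -0.16. The differences were -0.08 for LHCA, -0.06 for PSA and -0.03 for PSB. In all 5 complexes the ranges of the groups overlapped. The median log2 fold change over the members was 0.21 for RBCS, -0.12 for LHCB, -0.10 for LHCA, -0.10 for PSB and -0.02 for PSA. The RBCS median stayed above 0 in every setting that measured it, whereas with normexp background correction the medians of the other 4 complexes stood between 0.05 and 0.08. The median over all genes shifted by -0.20 with that correction and by -0.12 with scaling to spike-ins. The PSA median was 0.03 with scaling to each array's median, and the PSB median 0.00374 in the authors' table; with 1 array left out the PSA median ran between -0.09 and 0.02.

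**Figure D3:**
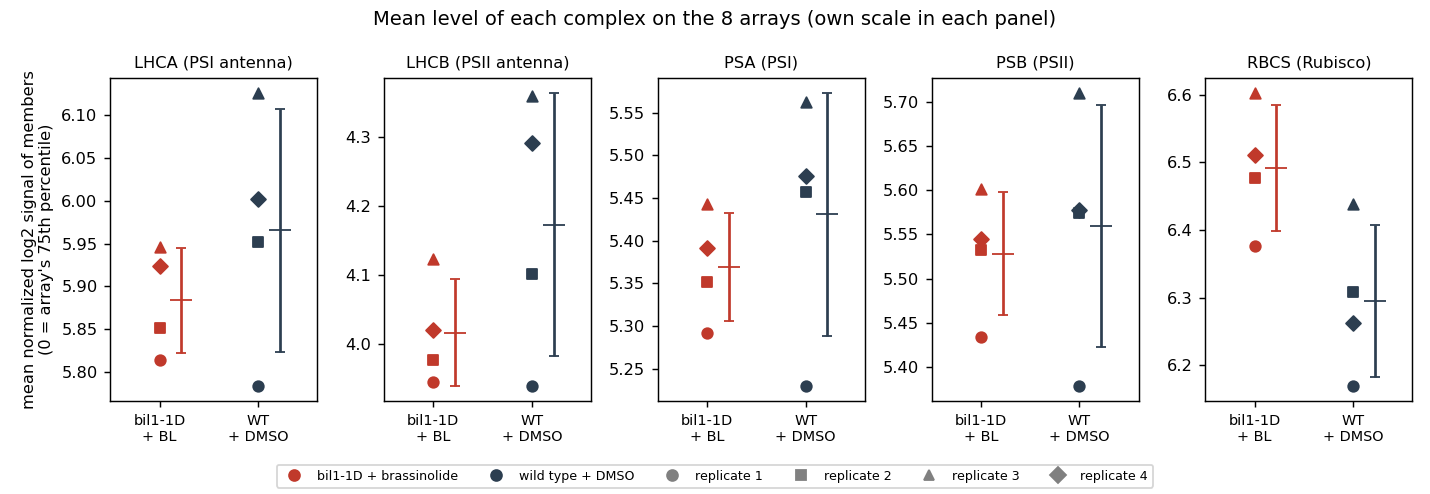
Each panel gives the mean normalized log2 signal of a complex's members on the 8 arrays, mutant left of wild type, with the mean and SD beside the points and marker shapes for the replicate. The groups overlap in every panel, and the triangle (replicate 3) is the highest wild-type array in all 5.

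The members moved together from array to array within a group. Wild-type replicate 1 was the lowest wild-type array for 39 of the 41 members and wild-type replicate 3 the highest for 38. In the mutant, replicate 1 was the lowest for 32 and replicate 3 the highest for 30. Array brightness moved with this. Replicate 1 had the highest 75th percentile in its group and replicate 3 the lowest, at 3821 and 3033 among mutant arrays and 6153 and 4638 among wild-type arrays. The highest 75th percentile was 1.26 times the lowest among mutant arrays and 1.33 times among wild-type arrays. For the 25 member probes with a mean signal of 300000 or more, the unscaled signal spanned only a median of 1.11 times among mutant arrays and 1.09 times among wild-type arrays. For the 120 dimmer member probes the span was 1.21 times among mutant arrays and 1.12 times among wild-type arrays. For other genes' probes with signals of 10000 to 100000 the median span was 1.25 times among mutant arrays and 1.32 times among wild-type arrays. The part of array brightness in the member results was not tested.

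Across the 145 member probes, the direction of the calls differed with brightness. At a mean signal of 300000 or more, 11 of 25 member probes were higher and 0 lower, with a median log2 fold change of 0.17. Of other genes' probes this bright, 7 of 16 were higher and 0 lower, with a median of 0.16. Between 200000 and 300000, 2 of 31 member probes were higher and 5 lower, with a median of -0.06; for other genes, 10 of 50 were higher and 7 lower, with a median of 0.08. Between 100000 and 200000, 0 of 33 member probes were higher and 15 lower, with a median of -0.19; for other genes, 57 of 342 were higher and 122 lower, with a median of -0.10. Between 10000 and 100000, 0 of 34 member probes were higher and 17 lower, with a median of -0.18; for other genes, 1436 of 5488 were higher and 1718 lower, with a median of -0.02. Under 10000, 1 of 22 member probes was higher and 6 lower; for other genes, 7352 of 28146 were higher and 8184 lower. Over the member probes, Spearman's rho between log2 signal and log2 fold change was 0.55 and Pearson's r was 0.30 (n = 145 probes, which share arrays and genes). The brightest spike-in RNA, at a mean signal of 344312, stood at 0.20, and the 8 spike-ins ran between -0.70 and 0.66.

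**Figure D4:**
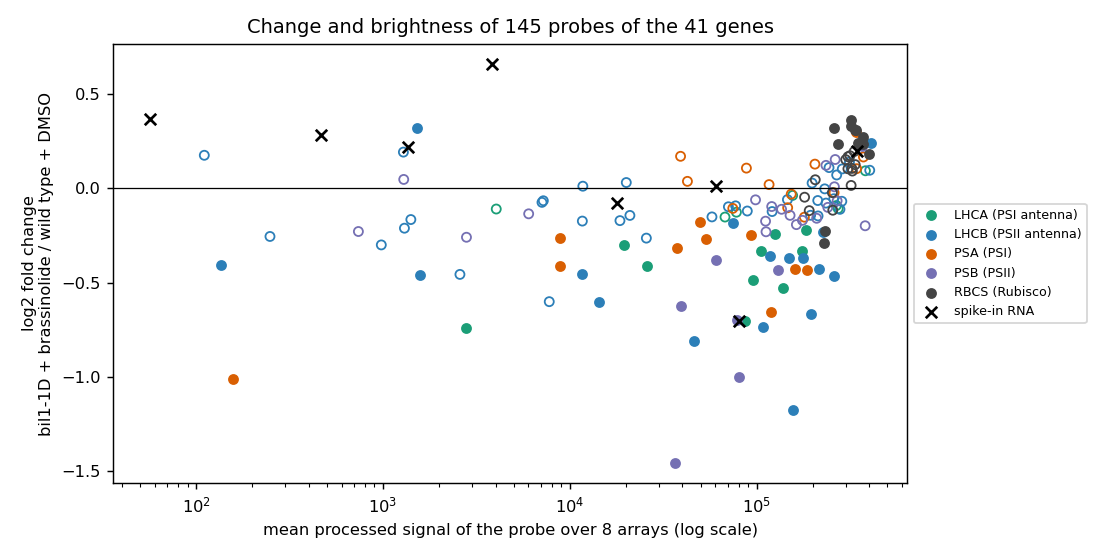
The horizontal axis is the mean processed signal of a probe over the 8 arrays on a log scale and the vertical axis its log2 fold change, mutant with brassinolide over wild type with DMSO. Points are the 145 member probes coloured by complex and filled where called, and crosses are 8 spike-in RNAs; called probes above 300000 all lie above 0, and called probes between 10000 and 200000 all lie below 0.

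Counted by probe, 14 of the 145 were called higher and 43 lower. That was 9.66% higher and 29.7% lower, against 26.0% higher and 29.5% lower among all probes tested (55.4% called). Pooled over the complexes, the share of falls was near that of all probes and the share of rises was below it. The share of falls was 58.8% for LHCA, 28.3% for LHCB, 43.5% for PSA, 23.1% for PSB and 7.69% for RBCS. By complex, 0 probes were higher and 10 lower of 17 for LHCA, 2 and 15 of 53 for LHCB, 1 and 10 of 23 for PSA, 1 and 6 of 26 for PSB, and 10 and 2 of 26 for RBCS. Of the 37 members with more than 1 probe, 17 had all probes below 0, 3 had all above and 17 had both signs. PSBW, RBCS1A and RBCS1B had probes called in both directions. A probe of LHCB1.5 was called lower at -1.17 and one of PSAD1 at -1.01, beside the lowest PSBW probe.

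In a setting added after the data were seen, each gene was represented by its brightest probe under a mean signal of 100000. It measured 31 members, with none of the RBCS genes, and 1 rose, 12 fell and 18 did not pass, at a median of -0.23. Among all 22020 genes tested there 56.1% were called, 30.2% higher and 25.9% lower. LHCB5 then fell by 0.81 on the log2 scale, LHCA1 by 0.70, PSBO1 by 0.62 and LHCB3 by 0.60, each with a limma adjusted p of at most 0.000517. LHCB7 was again the member that rose, since its brightest probe lies below that limit.

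The member counts depended on the scaling and on single arrays. With the mean of a gene's probes 2 members rose and 16 fell, where 54.5% of all genes were called. With quantile normalization 4 rose and 11 fell (57.7% of all genes), and the authors' table gave 4 rises and 13 falls (57.9%). Scaling to each array's median gave 8 rises and 5 falls (57.5%), scaling to spike-in RNA 0 and 4 (20.0%), and normexp background correction 14 and 5 (41%). Without the 3 marked arrays 0 members rose and 12 fell (39.8%). Leaving out 1 mutant array gave 6 rises and 5 falls without replicate 1 (52.5% of all genes called), 3 and 6 without replicate 2 (51.4%), 1 and 8 without replicate 3 (48.6%) and 1 and 6 without replicate 4 (50.9%). Leaving out 1 wild-type array gave 3 rises and 15 falls without replicate 1 (54.5%), 2 and 6 without replicate 2 (50.1%), 7 and 6 without replicate 3 (55.8%) and 1 and 5 without replicate 4 (50%). Of the single genes, PSAN, PSAD1 and LHCB1.1 kept their calls in 19 of 20 other settings and LHCB1.4 and PSAL in 18.

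Pairs of genes for the same protein were asked whether they changed by unequal amounts, and no pair passed the correction. Within-array differences were compared for 23 pairs by an exact two-sided permutation test over the 8 arrays, whose smallest possible p is 0.0286. Of the pairs, 0 passed after Benjamini-Hochberg adjustment over the 23, where the lowest adjusted p was 0.0597, and 11 had an unadjusted p under 0.05. At least 14 pairs would have had to reach the smallest p for any to pass, so the test could hardly call a pair. LHCB1.1 minus LHCB1.3 averaged -1.10 ± 0.09 in the mutant and -0.39 ± 0.05 in the wild type (SD, n = 4 each), a difference in change of -0.71. LHCB1.3 and LHCB1.1 are neighbours, and their arrays did not overlap in this difference. Whether the probes of these neighbours share signal was not tested. RBCS2B minus RBCS3B differed by 0.12 between the groups, also without overlap. These differences depend on the probe that stands for each gene. The LHCB1.3 probe was the highest of 9, whose median log2 fold change was 0.01, and the LHCB1.1 probes ran from -0.66 to -0.17. By the median of its probes RBCS2B stood at 0.17, below RBCS3B at 0.22. LHCB4.2 and LHCB4.3 had the largest difference of the CP29 genes, 0.33, and overlapped. PSBO1 and PSBO2 differed in change by -0.02.

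Several photosynthesis genes outside the 41, among them PSB27, FNR1, FBA1, ELIP2 and GLK1, fell further on their brightest probe than any called member. These probes were dimmer than the brightest probes of most members, so the comparison is at unlike brightness. With each gene's brightest probe under 100000, 12 of 31 members fell, 1 rose and 18 did not pass. PSBW then fell by 1.0 and LHCB5 by 0.81. The counts of these lists stand beside 55.9% of all genes called, 30.2% higher and 25.7% lower. Of 9 further photosystem subunits, 3 rose and 3 fell (66.7% called). PSB27, an assembly factor of photosystem II, fell by 0.69 on the log2 scale (SE 0.11, limma adjusted p = 0.00102), and PSBTN, a small photosystem II subunit, rose by 0.30. Of 13 genes for electron transport and ATP synthase, 0 rose and 6 fell (46.2% called). The largest of these falls was in FNR1, the leaf reductase that passes electrons to NADP. It read 2.69, 2.69, 2.69 and 2.64 on the mutant arrays, against 3.50, 3.49, 3.52 and 3.56 on the wild-type arrays, so the groups were far apart and FNR1 fell by 0.84. Of its 5 probes 2 were called lower and 3 were not called, with a median of -0.16 and this probe the lowest.

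Of 15 genes of the Calvin-Benson cycle, 2 rose and 5 fell (46.7% called, against 55.9% of all genes). FBA1, a plastid aldolase, read 3.38, 3.37, 3.38 and 3.30 on the mutant arrays, against 4.17, 4.25, 4.42 and 4.32 on the wild-type arrays. It fell by 0.94 on the log2 scale, with both of its probes called lower. SBPASE, the sedoheptulose bisphosphatase, was called higher at 0.19 on its brightest probe and lower at -0.48 on its other probe, so no direction can be given for it. Of 7 genes for antenna targeting and state transitions, 1 rose and 4 fell (71.4% called). CPSRP54, a signal recognition particle subunit that carries LHC proteins to the thylakoid, fell by 0.56, and STN8, a kinase of photosystem II proteins, rose by 0.36. ALB3, which inserts LHC proteins into the membrane, counts here as a fall at -0.52, but its other probe was called higher at 0.50.

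Of 6 genes for early light-induced and other LHC-like proteins, 0 rose and 3 fell (50% called, against 55.9% of all genes). ELIP2, a photoprotective protein, read -1.98, -2.14, -2.13 and -2.19 on the mutant arrays, against -0.75, -0.85, -0.98 and -1.08 on the wild-type arrays. It fell by 1.20 on the log2 scale and passed 2-fold. GLK1, a transcription factor that drives antenna and chlorophyll genes, fell by 0.78 (SE 0.09, limma adjusted p = 0.000215). Its partner GLK2 stood at 0.23 and did not pass. The plastid-encoded subunits, 7 on the list, were not analysed here.

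**Figure D5:**
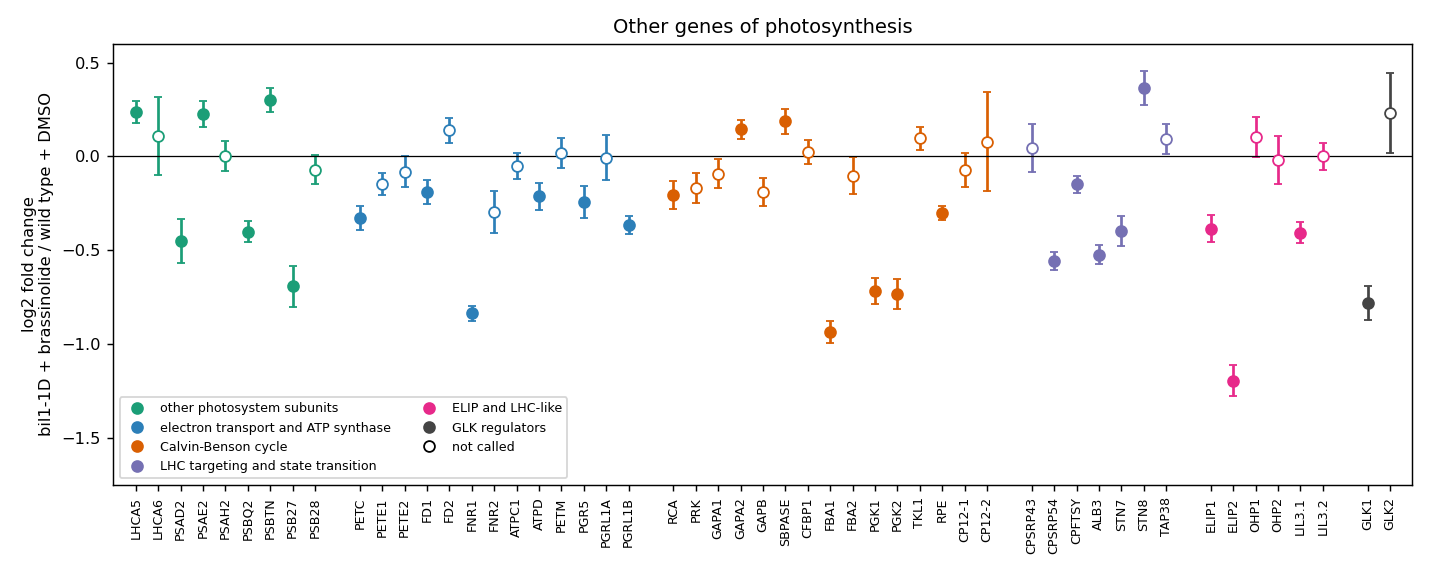
The vertical axis gives the log2 fold change, mutant with brassinolide over wild type with DMSO, with its SE for 52 further photosynthesis genes along the horizontal axis, coloured by list and filled where called. The lowest points are ELIP2 at -1.20, FBA1 at -0.94 and FNR1 at -0.84, and no point is above 0.36.

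Markers of cell types in the seedling moved beside these results. All 3 epidermis markers rose (ATML1, PDF1 and PDF2, by 0.31 to 0.66 on the log2 scale), 3 of 4 vascular markers fell (by 0.22 to 0.38), and 6 of 7 root markers did not pass. Of all genes tested, 30.2% rose and 25.7% fell. The remaining root marker, MYB36, was called higher at 0.44 on its brightest probe and lower at -0.45 on its other probe. The summed scaled signal of the epidermis markers was 14.2 to 16.0 in the mutant and 9.28 to 10.8 in the wild type. For the vascular markers it was 6.39 to 6.84 in the mutant and 7.16 to 9.26 in the wild type, and for the root markers 2.30 to 4.67 in the mutant and 2.41 to 3.45 in the wild type. No marker was below background on all arrays of both groups. The part of cell makeup in the member results was not tested.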

How the data were processed

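The members and lists were chosen with earlier results of these data known. The labels gave 2 groups of 4 samples. RNA (200 ng) was labelled with Cy3, per the labels' protocols. Each scanner file holds spot intensity on a linear scale as deposited by the authors; the processed signal is background-subtracted and, per the file headers, not normalized between arrays. The headers name Feature Extraction 11.5.1.1, and the submitters' processing notes name 9.1.3.1. The authors' deposited value table is taken as natural log values, from slopes of 0.948 to 0.979 against the natural log of the signal; this base is an inference. Its median was -0.970 in every column, and how it was centred stays unknown. It served as 1 of the alternatives.

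Outlier spots (93) were left out and spots of a probe averaged. Of 43603 probes, 36163 matched 1 locus through accessions in a RefSeq gene table. Probes were kept if flagged well above background on every array of 1 or both groups; scaled signals were floored at 0.001 of the 75th percentile. The brightest probe of a gene was tested with limma 3.58.1 in R 4.3.3 (Benjamini-Hochberg, adjusted p under 0.05), and pairs of genes with scipy 1.17.1. The fit was tested on simulated data. It recovered 56.7% of the genes given a log2 change of 0.5, 91.0% of those given 1 and 98.5% of those given 2. Values on every array are given for the called members with the largest rise and fall of each complex (2 of each for LHCB), for the LHCB4, PSBO and RBCS pairs with the largest difference in change, and, for the other photosynthesis lists, the largest rise and fall are named; other members, and genes outside this rule, were named after their values were seen. The alternatives were other scalings, filters, probe choices, background (normexp, offset 50, on the median signal, as no mean signal was in the files), the authors' table, a replicate block, and arrays left out. No sequence is shown.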

Additional observations from a re-analysis of the deposited data

Results flagged for a closer look

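In 92 groups of 4 arrays, chance places about 1 in 20 apart from the rest by the test used here, and 2 stood apart. For LHCA2 in the mutant, replicate 4 lay above the other 3 arrays by 0.849 of the group's range. For PSAO in the mutant, replicate 3 lay above the other 3 arrays by 0.831 of the range.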

How the results depend on the processing

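Values are log2 fold changes, mutant with brassinolide over wild type with DMSO, or counts of members or genes called. Scaling to each array's median left 5 members lower. In the values of the authors' table, 4 members were higher, the PSB median was 0.00374 and the RBCS median 0.026, LHCA1 stood at -0.16 and RBCS1A at -0.019. Quantile normalization gave 4 members higher, a PSB median of -0.00117, an RBCS median of 0.018 and RBCS1A at -0.0093. Scaling to spike-in RNA called 1423 genes higher and 2994 lower, members 0 higher and 4 lower, with medians of -0.22 for LHCA, -0.22 for PSB and 0.090 for RBCS. The normexp background called 3984 genes higher, members 14 higher and 5 lower, with medians of 0.076 for LHCA, 0.060 for LHCB, 0.050 for PSB and 0.35 for RBCS, and LHCB4.1 at 0.035. The mean of a gene's probes gave members 2 higher and 16 lower, with medians of -0.28 for LHCA, -0.34 for LHCB and -0.19 for PSB, and stood at -0.38 for LHCA1, -0.36 for LHCB3, -0.22 for PSAE1, -0.67 for PSBW and -0.013 for RBCS1B. The brightest probe under 100000, added after the data were seen, gave 1 member higher, medians of -0.32 for LHCA, -0.18 for PSA and -0.26 for PSB, and -0.70 for LHCA1, -0.60 for LHCB3, 0.17 for PSAD1, -0.31 for PSAE1 and -1.0 for PSBW. Without the 3 marked arrays 0 members were higher, and the medians were -0.27 for LHCB and -0.19 for PSB. Counting each probe gave 14 member probes higher and 43 lower, and 10074 probes of all genes lower. Leaving out 1 array gave 1 to 7 members higher and 5 to 15 lower. The causes were not tested.

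Replicate numbers gave weak pairing: same-numbered arrays deviated from their group means with correlations of -0.10, -0.28, 0.17 and 0.04, and only replicate 3 correlated best with its own number. With the replicate block 9 members rose and 9 fell; the block kept the 7 rises and 8 of the 9 falls, losing LHCB4.3 at -0.45. The slide could not be fitted as a block. The pair test could hardly call a pair, so its counts under other settings say nothing about stability; with fewer arrays it was not run. All 145 member probes were well above background.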
